A study of Mus musculus with 21 samples.

Results

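The comparison described here sets lungs taken on day 56 after left pneumonectomy against lungs taken on day 56 after sham surgery. It uses 6 of the 21 arrays of a time course of the right lung of male C57BL/6 mice, chosen by their labels: 3 pneumonectomy arrays and 3 sham arrays. In each group 1 array held the medial lobe, 1 the cardiac lobe and 1 the whole right lung, so that the groups were matched in time and by region. Left pneumonectomy removes the left lung, after which the remaining right lobes enlarge. Sham surgery leaves the left lung in place. The other 15 arrays were from day 0 and from days 3, 7, 14 and 28 after pneumonectomy, in the same 3 regions. The age of the mice, the hour at which lungs were taken, and whether 1 animal or a pool gave the regions of a group are not stated in the labels. The whole right lung can contain the 2 lobes measured separately, so the 3 arrays of a group may not be independent animals. The p-values rest on the spread between arrays that condition and region leave over, pooled over all 21 arrays. That spread may be technical.

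Compensatory growth after pneumonectomy is known in rodents as an early wave of cell division and matrix production in the remaining lobes that subsides within weeks. Lung cells also carry a circadian clock. In it the proteins encoded by Arntl (BMAL1) and Clock switch on genes through a DNA element called the E-box, among them their own repressors of the Per and Cry families and the Nr1d receptors, which in turn repress Arntl. Transcripts of Arntl and of the E-box targets therefore peak at opposite phases of the day. Heat shock proteins fold proteins in the cytosol and mitochondria, and a separate set of chaperones, induced by the unfolded protein response, works in the endoplasmic reticulum (ER).

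Values are log2 expression levels from robust multi-array averaging (RMA), and a difference is pneumonectomy minus sham, from a limma model of all 21 arrays with terms for condition and region. A gene was called at an adjusted p under 0.05 (Benjamini-Hochberg over 19938 genes). The number of arrays limits the precision: the median standard error of a difference was 0.11. All 6 arrays carried the defining transcripts of lung. Sftpc and Sftpb (surfactant proteins of alveolar type II cells), Ager (alveolar type I) and Scgb1a1 (club cells) were at or above the 99.6th percentile of genes on every array, and none of them was called. The whole-lung pneumonectomy array stood apart from the others by the mean level of 59 small nuclear, nucleolar and Cajal body RNA genes, 9.84, against 8.86 in the whole-lung sham array. It was 7.29 and 7.48 in the medial and cardiac lobes after pneumonectomy, against 7.32 and 7.00 after sham. None of the 59 was called, with 7 higher and 0 lower at an unadjusted p under 0.05, beside 2.83% and 5.34% of all genes. The part of this array in the results is given below by leaving it out.

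At day 56, 67 genes differed between pneumonectomy and sham lungs (0.336% of those tested). Of these, 14 were higher (0.0702%) and 53 lower (0.266%) after pneumonectomy. The genes that were higher were led by targets of the circadian clock, and the genes that were lower by the clock activator Arntl, the secreted matrix protein Spon2 and chaperones. All 67 had 1 direction in all 3 regions, and in 59 of them the 3 pneumonectomy arrays did not overlap the 3 sham arrays, against 7.23% of all genes. The genes were called from these same arrays, so both counts follow largely from the choice and are no separate evidence. At an unadjusted p under 0.05 there were 565 higher (2.83%) and 1065 lower (5.34%) genes. Differences were small across the genome: 98.4% of genes lay within 0.5 of 0, and the median over all genes was -0.0062. By size, 9 called genes were higher by 2-fold or more and 9 lower by 2-fold or more. The count of called genes depended on single arrays, at 29 without the medial sham array and 30 without the cardiac sham array. It was 36 without the medial or the cardiac pneumonectomy array and 45 without the whole-lung pneumonectomy array. Without the whole-lung sham array it was 75, with 45 of the 67 among them.

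**Figure D1:**
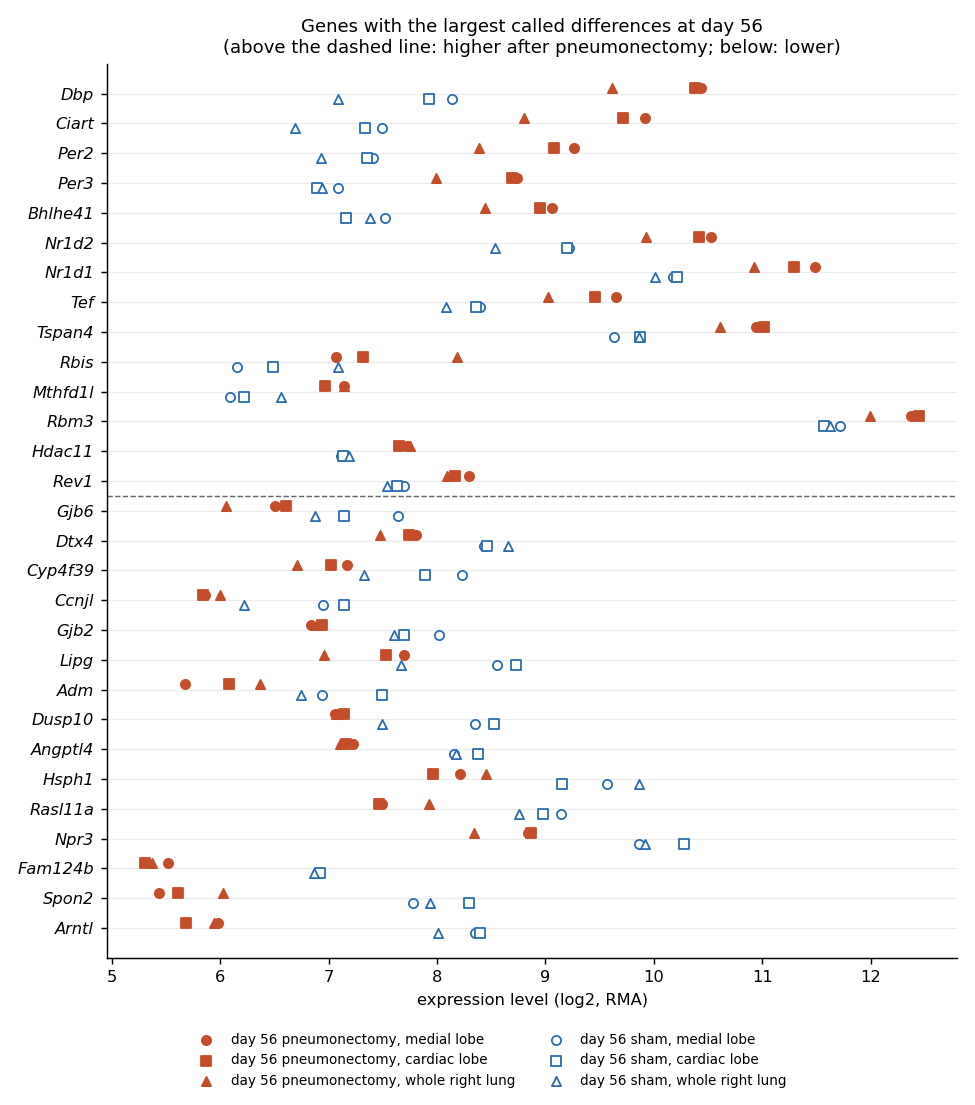
Log2 expression level (horizontal axis) on each of the 6 arrays for the 14 genes called higher after pneumonectomy and the 15 largest called falls. Filled symbols are pneumonectomy arrays, open symbols sham arrays, and shapes mark the region. Apart from Rbis and Lipg, whose groups overlap, the filled and open symbols of every gene are separated.

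Arntl, the activator at the centre of the clock, was at 5.98, 5.68 and 5.95 in the medial lobe, cardiac lobe and whole lung after pneumonectomy, against 8.35, 8.40 and 8.01 after sham. Every pneumonectomy array was far below every sham array. The fitted difference was -2.38 ± 0.14 (SE, n = 3 arrays in each group), or 5.22-fold lower after pneumonectomy (limma adjusted p = 2.39e-07), the smallest adjusted p of any gene.

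Dbp, a transcription factor driven by Arntl and Clock that carries the rhythm to output genes, was at 10.44, 10.38 and 9.62 after pneumonectomy, against 8.14, 7.92 and 7.08 after sham. Within each group the whole lung was lowest, and the groups did not overlap. The difference was 2.43 ± 0.22, or 5.40-fold higher (adjusted p = 6.35e-05). Ciart, a repressor of the Arntl and Clock pair, was at 9.92, 9.72 and 8.80 after pneumonectomy, against 7.49, 7.33 and 6.69 after sham, and was 4.95-fold higher (adjusted p = 0.000245). Per2, which encodes a repressor of the same pair, was at 9.26, 9.08 and 8.39 after pneumonectomy, against 7.41, 7.35 and 6.93 after sham. Its groups did not overlap either, and it was 3.20-fold higher (adjusted p = 0.000245). Of the 2 probe sets annotated to Ciart, the brighter one is given.

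Of 15 measured core clock genes, 6 were called higher and 1, Arntl, lower, beside 0.0702% higher and 0.266% lower of all genes, with a list median of 0.37. Besides Ciart and Per2, the higher ones were Per3 (2.83-fold), Bhlhe41 (1.47 ± 0.16), which encodes a further E-box repressor, and the Arntl repressors Nr1d2 (1.31 ± 0.14) and Nr1d1 (1.10 ± 0.15). The remaining 8 did not pass. Clock itself differed by -0.67 (adjusted p = 0.114) and Bhlhe40 by 0.80 (adjusted p = 0.0969), and in neither did the arrays of the groups overlap. Cry2 differed by 0.37, Cry1 by -0.11, Per1 by 0.27, Rora by -0.02, Csnk1d by -0.14 and Csnk1e by -0.16. For Per1 the region mattered: it was at 9.87, 9.67 and 8.55 after pneumonectomy and at 9.69, 9.82 and 7.78 after sham, and its difference was -0.43 without the whole-lung sham array.

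Among 12 transcription factors and other genes downstream of the clock, 3 were called higher (beside 0.0702% of all genes): Dbp, Ciart (which is also in the core list) and Tef, a factor related to Dbp, at 1.10 ± 0.11. None was called lower. At an unadjusted p under 0.05, 6 were higher and 2 lower, beside 2.83% and 5.34% of all genes. The list median was 0.31. Nfil3, which binds the same sites as Dbp but represses, was at 6.99, 6.88 and 7.34 after pneumonectomy, against 8.26, 8.40 and 7.61 after sham. Its groups did not overlap, but the difference of -1.02 ± 0.27 did not pass (adjusted p = 0.202). Hlf, another relative of Dbp, differed by 0.61 and the mitotic kinase gene Wee1, a known E-box target, by 0.73 (adjusted p = 0.0821), and neither passed.

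The E-box (CACGTG, the same on both strands) was searched in RefSeq promoters of the GRCm38.p6 build, each running from 250 bases before to 50 bases after a gene's start. Of the 67 called genes 52 had a promoter in the table. The element was in 7.15% of all 32851 promoters, in the promoters of 5 of 11 higher genes (Ciart, Bhlhe41, Tef, Tspan4 and Rev1) and of 5 of 41 lower genes (Hsph1, Hspd1, Gprin3, Nupr1 and Rab27a). Counted by promoter, since a gene can have several, the element was in 6 of 13 for the higher and 6 of 51 for the lower genes. A match describes the letters and is not evidence of binding. The promoter of Ciart (chr3:95882179-95882478, minus strand) held 3 copies, and that of Tspan4 (chr7:141476130-141476429, plus strand), a tetraspanin gene not in the clock lists, held 1. Arntl had no E-box in its window (chr7:113207261-113207560, plus strand) but 1 match to the ROR response element (AANT followed directly by AGGTCA, where N is any base), the element through which the Nr1d receptors are known to repress it. That element, on either strand, was in 0.219% of all promoters, and among called genes in those of Arntl and Leo1. The 3 promoters are printed 5′ to 3′ on the strand of the gene, with the matches in capitals, because their genes moved in opposite directions.
Ciart: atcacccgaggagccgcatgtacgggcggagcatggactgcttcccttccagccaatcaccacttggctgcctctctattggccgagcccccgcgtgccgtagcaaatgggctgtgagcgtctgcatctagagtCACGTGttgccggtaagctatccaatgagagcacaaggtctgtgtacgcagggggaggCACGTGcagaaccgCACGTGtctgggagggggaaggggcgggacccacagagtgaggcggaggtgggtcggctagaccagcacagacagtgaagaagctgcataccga
Tspan4: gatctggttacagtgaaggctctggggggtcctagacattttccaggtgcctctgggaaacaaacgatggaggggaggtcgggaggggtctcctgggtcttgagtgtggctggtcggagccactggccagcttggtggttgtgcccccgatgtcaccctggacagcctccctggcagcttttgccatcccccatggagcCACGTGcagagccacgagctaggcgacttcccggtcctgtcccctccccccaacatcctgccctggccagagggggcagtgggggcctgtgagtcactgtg
Arntl: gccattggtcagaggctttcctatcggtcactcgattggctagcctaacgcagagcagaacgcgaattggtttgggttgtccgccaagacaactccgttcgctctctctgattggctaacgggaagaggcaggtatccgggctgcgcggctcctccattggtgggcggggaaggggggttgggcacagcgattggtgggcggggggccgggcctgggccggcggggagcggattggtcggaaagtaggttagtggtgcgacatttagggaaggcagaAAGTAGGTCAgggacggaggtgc

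Over the whole time course the clock genes did not move steadily. Mean Arntl was 6.15 at day 0, then 6.66, 6.29, 8.02 and 6.39 at days 3, 7, 14 and 28 after pneumonectomy and 5.87 at day 56, and it was 8.25 in the day 56 sham lungs. The sham level was thus near that of day 14 after pneumonectomy, and the day 56 pneumonectomy level near that of day 0. Dbp ran the other way, at 10.24, 9.48, 9.45, 8.14, 10.12 and 10.15 from day 0 to day 56 after pneumonectomy, against 7.71 after sham. The SDs over 3 arrays in these conditions were at most 0.27 for Arntl and 0.56 for Dbp. The labels do not state the hour at which lungs were taken, so surgery and hour cannot be told apart in the day 56 comparison. The part of the hour in these and the other differences was not tested, and "after pneumonectomy" names the group only.

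**Figure D2:**
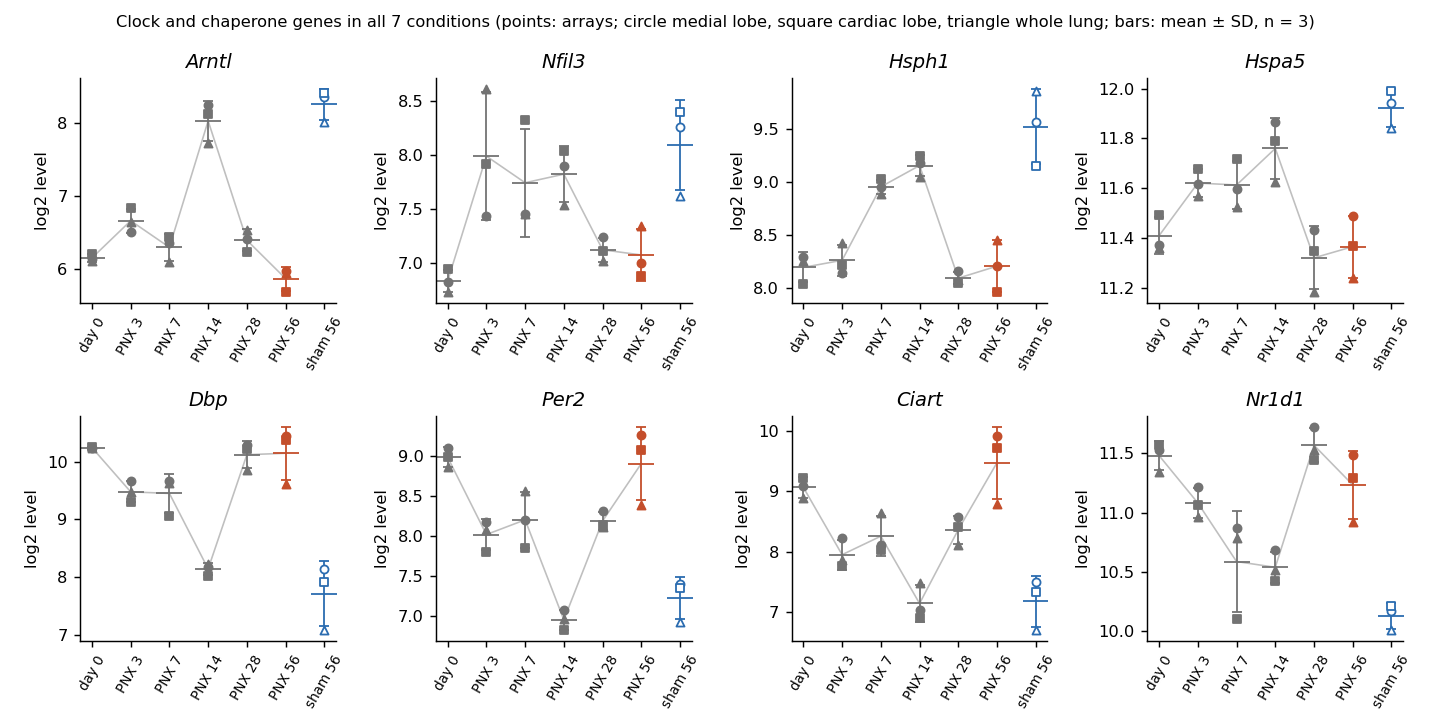
Log2 level of 8 genes in all 7 conditions, in time order with the day 56 sham lungs at the right (PNX, pneumonectomy, with the day); points are arrays (shape by region) and bars the mean ± SD (n = 3). Arntl stands high at day 14 and in sham lungs, at 8.02 and 8.25, where Dbp stands low, at 8.14 and 7.71.

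Other genes that were higher after pneumonectomy were Tspan4 (1.06 ± 0.11), Rbis (0.95 ± 0.16), which encodes a ribosome biogenesis factor, Mthfd1l (0.79 ± 0.13), a mitochondrial folate enzyme, Hdac11 (0.56 ± 0.08), a histone deacetylase, and Rev1 (0.56 ± 0.09), a DNA polymerase that bypasses damaged bases. Rbm3, an RNA-binding protein induced by mild cold, was at 12.37, 12.45 and 11.99 after pneumonectomy, against 11.72, 11.57 and 11.62 after sham. All its pneumonectomy arrays lay above its sham arrays, and it was 1.55-fold higher (adjusted p = 0.0282). Its relative Cirbp, also cold-induced, differed by 0.59 without passing (adjusted p = 0.426). Of the alternative fits given below, Rbm3 passed in 8 of 15, Rbis in 10 of 14 and Mthfd1l in 8 of 14. Hdac11 passed in 13 of 15 and Rev1 in 11 of 15.

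Cytosolic, mitochondrial and ER chaperone genes were among those that were lower after pneumonectomy. Of 31 heat shock proteins and cochaperones, 6 were called lower and 0 higher, with 14 lower and 1 higher at an unadjusted p under 0.05, and the list median was -0.22. Hsph1, which releases nucleotide from HSP70 chaperones, was at 8.21, 7.96 and 8.45 after pneumonectomy, against 9.56, 9.15 and 9.86 after sham. No arrays overlapped, and it was 2.49-fold lower (adjusted p = 0.000221). Hsp90aa1, the inducible cytosolic HSP90, was at 11.23, 11.12 and 11.21 after pneumonectomy, against 11.97, 11.89 and 11.94 after sham. The 3 regions gave nearly the same value within each group, and the gene was 1.68-fold lower (adjusted p = 0.000245).

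The other called members were the HSP90 cochaperones Stip1 (-0.72 ± 0.14) and Fkbp4 (-0.55 ± 0.08), the collagen chaperone Serpinh1 (-0.61 ± 0.12) and the mitochondrial chaperonin Hspd1 (-0.42 ± 0.08). Hspa4l (-0.78, adjusted p = 0.0816) and the small heat shock protein Hspb1 (-0.63, adjusted p = 0.115) did not pass. Hspa8, the constitutive HSP70, differed by -0.27. Of the classic stress-induced genes, Hspa1a differed by -0.10 (95% interval -0.72 to 0.52) and Dnajb1 by -0.08 (-0.48 to 0.32), and both changed sign when 1 sham lobe was left out. Hspa1a has a near-identical neighbour, so its value is uncertain as to the copy. The count of 6 fell to between 3 and 4 when any 1 of the 6 arrays was left out, and was 4 with each array centred on its median. Of the 15 alternative fits, Stip1, Serpinh1 and Hspd1 each passed in 5 and Fkbp4 in 12. Hsph1 and Hsp90aa1 passed in all 15.

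In the ER list, 4 of 24 genes were called lower and 0 higher, with 15 lower and 0 higher at an unadjusted p under 0.05, and the list median was -0.26. Hspa5, the main ER chaperone, was at 11.49, 11.37 and 11.24 after pneumonectomy, against 11.94, 11.99 and 11.84 after sham. The groups did not overlap, and it was 1.47-fold lower (adjusted p = 0.000496). Creld2 (-0.75 ± 0.10) and Sdf2l1 (-0.73 ± 0.14), both induced by ER stress, and the disulphide isomerase Pdia6 (-0.53 ± 0.08) were lower as well. The median over all genes was -0.0062, and the shares called lower, 6 of 31 and 4 of 24, stand beside 0.266% of all genes. At an unadjusted p under 0.05, 5.34% of all genes were lower and 2.83% higher. Without the whole-lung pneumonectomy array, 3 heat shock and 4 ER genes were called lower, but 0 ER genes were in the lobes alone, and 1 without the region term or with only the 6 arrays. Of the 15 alternatives, Creld2 and Hspa5 passed in 13, Pdia6 in 12 and Sdf2l1 in 7.

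**Figure D3:**
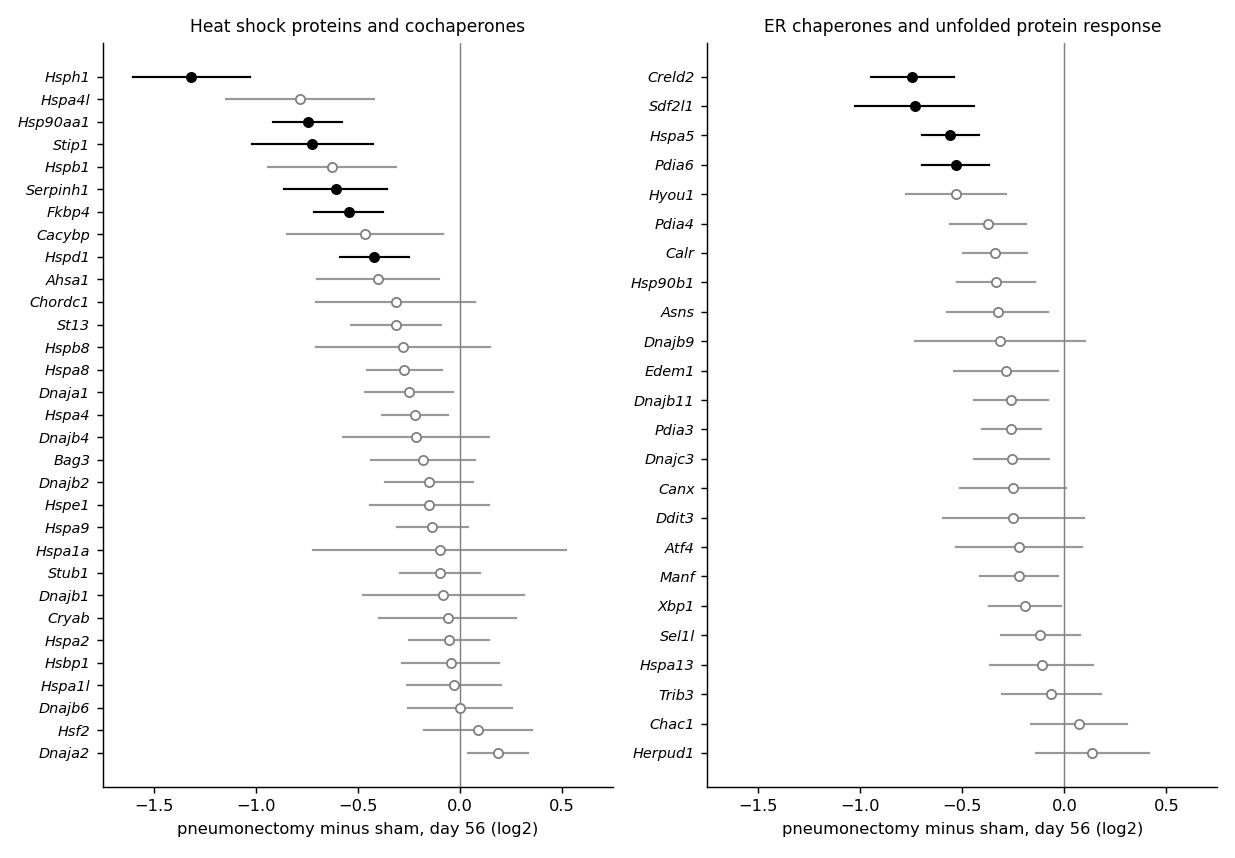
Difference between pneumonectomy and sham lungs at day 56 (log2, horizontal axis) with 95% intervals for 31 heat shock genes (left) and 24 ER genes (right). Filled points passed the test: 6 on the left and 4 on the right, all below 0.

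Promoters of these genes were searched on both strands for 2 elements known to drive them. A heat shock element of 3 units (TTC, GAA and TTC, with any 2 bases between neighbouring units) was in 0.603% of all promoters and in those of 5 of the 26 heat shock genes with a promoter in the table. Of these 5, Hsph1 and Hspd1 were called, and Chordc1, Dnajb6 and Hspe1 were not. Counted by promoter, the heat shock list had the element in 7 of 34. Hspd1 and Hspe1 lie head to head and share the element. The ER stress response element (CCAAT, any 9 bases, then CCACG) was in 0.119% of all promoters and in those of 7 of 21 ER genes: Hspa5, Creld2 and Pdia6, which were called, and Calr, Canx, Dnajc3 and Hsp90b1, which were not. The promoters of Hsph1 (chr5:149636287-149636586, minus strand), Hspd1 (chr1:55087883-55088182, minus strand), Hspa5 (chr2:34771840-34772139, plus strand) and Creld2 (chr15:88819396-88819695, plus strand) are printed 5′ to 3′ from RefSeq (GRCm38.p6), with the element in capitals, 2 overlapping matches in Hspd1 and a match on the opposite strand in Creld2. The E-box in the Hsph1 window is left in lower case.
Hsph1: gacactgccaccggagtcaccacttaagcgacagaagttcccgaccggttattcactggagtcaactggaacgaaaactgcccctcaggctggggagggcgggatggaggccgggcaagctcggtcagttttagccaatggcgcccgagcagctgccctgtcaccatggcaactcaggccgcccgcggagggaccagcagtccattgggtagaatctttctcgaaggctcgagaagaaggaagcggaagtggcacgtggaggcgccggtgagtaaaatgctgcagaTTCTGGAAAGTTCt
Hspd1: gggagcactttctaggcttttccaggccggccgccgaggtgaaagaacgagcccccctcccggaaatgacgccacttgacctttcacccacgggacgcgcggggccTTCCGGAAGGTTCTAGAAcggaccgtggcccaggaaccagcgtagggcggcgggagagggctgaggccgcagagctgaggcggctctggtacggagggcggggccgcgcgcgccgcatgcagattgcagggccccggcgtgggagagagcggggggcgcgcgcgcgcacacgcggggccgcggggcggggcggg
Hspa5: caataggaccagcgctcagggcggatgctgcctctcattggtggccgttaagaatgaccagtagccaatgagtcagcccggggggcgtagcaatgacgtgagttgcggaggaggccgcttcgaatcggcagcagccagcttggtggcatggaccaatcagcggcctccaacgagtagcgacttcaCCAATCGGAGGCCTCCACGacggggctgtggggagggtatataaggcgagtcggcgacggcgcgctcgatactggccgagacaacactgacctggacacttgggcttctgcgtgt
Creld2: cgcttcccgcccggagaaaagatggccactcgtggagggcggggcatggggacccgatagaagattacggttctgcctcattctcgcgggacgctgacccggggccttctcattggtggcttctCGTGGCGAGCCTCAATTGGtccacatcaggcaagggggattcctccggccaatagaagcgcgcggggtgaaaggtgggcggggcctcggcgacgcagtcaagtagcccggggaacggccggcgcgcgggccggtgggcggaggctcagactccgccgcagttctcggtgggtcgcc

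The largest fall after Arntl was that of Spon2, a secreted matrix protein with a role in innate immunity, at 5.43, 5.61 and 6.03 after pneumonectomy, against 7.77, 8.30 and 7.94 after sham. The groups were fully separated, and it was 4.97-fold lower (adjusted p = 0.0040). Npr3, the clearance receptor of natriuretic peptides, was at 8.84, 8.87 and 8.34 after pneumonectomy, against 9.86, 10.28 and 9.92 after sham, and was 2.53-fold lower (adjusted p = 0.000859). Adm, which encodes the vasodilator adrenomedullin, was at 5.67, 6.08 and 6.36 after pneumonectomy, against 6.94, 7.49 and 6.74 after sham. Its sham arrays were all above its pneumonectomy arrays, with the smallest gap in the whole lung, and it was 2.03-fold lower (adjusted p = 0.0282).

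Further falls of this size were those of Fam124b (2.82-fold lower), the Ras-like GTPase gene Rasl11a (-1.33 ± 0.15), Angptl4 (-1.08 ± 0.13), which encodes an inhibitor of lipoprotein lipase, and the kinase phosphatase gene Dusp10 (-1.03 ± 0.17). The endothelial lipase Lipg differed by -0.92 ± 0.17, the gap junction genes Gjb2 and Gjb6 by -0.88 ± 0.15 and -0.83 ± 0.16, Ccnjl by -0.87 ± 0.15, the cytochrome P450 gene Cyp4f39 by -0.85 ± 0.14 and the ubiquitin ligase gene Dtx4 by -0.84 ± 0.12. Fgf10, the mesenchymal growth factor that drives branching in the embryonic lung, was at 7.08, 7.04 and 6.97 after pneumonectomy, against 7.57, 7.91 and 7.61 after sham. The arrays of each group were close together, and it was 1.59-fold lower (adjusted p = 0.00175). It was the only one of 35 lung development genes to be called. Against day 0, Fgf10 differed by -0.00043 after pneumonectomy and by 0.67 after sham. Acot1, an acyl-CoA thioesterase gene, differed by -0.81 and joined Angptl4 as 2 of 21 genes of the glucocorticoid and fasting list. P4ha1, a collagen prolyl hydroxylase gene, differed by -0.51 and joined Adm as 2 of 19 hypoxia targets, beside 0.266% of all genes lower. Its differences from day 0 were -0.06 after pneumonectomy and 0.45 after sham. Without the whole-lung pneumonectomy array, 1 gene was called in each of these lists, and 0 fibrillar matrix genes were. P4ha1 passed in 4 of its 15 alternatives, at adjusted p of up to 0.98, Adm in 8 of 14 and Acot1 in 10 of 15. Gjb6 passed in 4 of 14, Ccnjl in 9 of 14, Lipg in 8 of 15 and Gjb2 in 9 of 15. Cyp4f39 and Dusp10 passed in 10 of 15, Fgf10 in 13, and Angptl4 and Dtx4 in 14.

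The called genes were also set against day 0, before surgery. Both day 56 groups are then compared with the same 3 day 0 arrays, so the values are given side by side and not tested against each other. The genes were also called from these day 56 arrays, so each had to lie away from day 0 in at least 1 group. Shares over all genes, which were not chosen in this way, are given for scale only. In 61 of the 67 called genes the sham lungs lay farther from day 0 than the pneumonectomy lungs did, against 37.1% of all genes. The median distance of the called genes from day 0 was 0.15 after pneumonectomy and 0.56 after sham. Arntl differed from day 0 by -0.28 after pneumonectomy and by 2.10 after sham, Spon2 by -0.19 and 2.13, Hsph1 by 0.01 and 1.33, and Dbp by -0.10 and -2.53. Against day 0, 1 of the 67 was called after pneumonectomy (Rbis), where 0.0903% of all genes were called, and 35 after sham, where 0.381% were. The 6 genes that lay farther from day 0 after pneumonectomy were Rbis, Angptl4, Dapk1, Rbm45, Rab11fip1 and Slc43a2, the last 4 named after their values were seen.

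**Figure D4:**
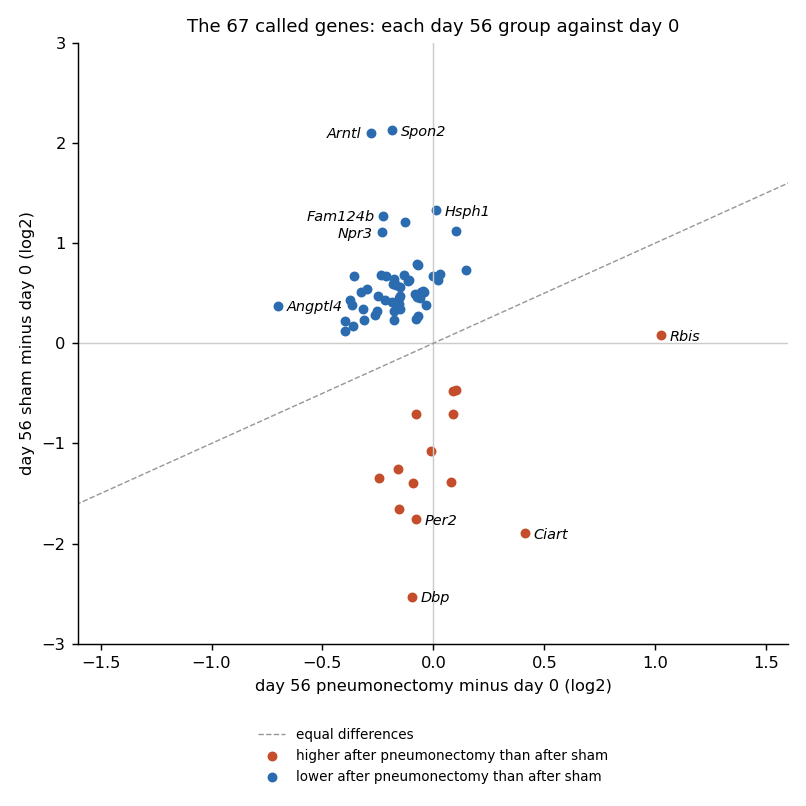
For the 67 called genes, the day 56 pneumonectomy minus day 0 difference (horizontal axis, log2) and the day 56 sham minus day 0 difference (vertical axis, log2); both use the same day 0 arrays. Most points lie close to 0 on the horizontal axis and away from 0 on the vertical axis, with Rbis as an exception at 1.02 and 0.08.

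On the 15 arrays outside the comparison, with region means removed, 35 of the 52 other genes called lower had a correlation above 0.5 with Arntl, against 4.29% of all genes. Of the 14 genes called higher, 13 had one below -0.5, against 2.60% of all genes. Rbis, at 0.16, was the exception. Hsph1 and Arntl had a correlation of 0.66 on these arrays. The 15 arrays share 5 conditions, so these correlations are descriptions of few independent levels, with day 14 prominent among them. These arrays also entered the residual variance by which genes were called, so the shares over all genes are given for scale only.

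The day 56 comparison was then read against the early response, which is seen between day 3 and day 0 and shares no array with it. Both come from the same model and use 1 residual variance per gene, so their calls are not fully independent. The labels give no sham lungs at day 3 and no hour. Loss of the left lung, the operation itself and the hour therefore cannot be told apart in the early response. Of 792 genes called higher at day 3 (3.97% of all genes), with a median rise of 0.69, 0 were called higher at day 56 and 9 lower. At an unadjusted p under 0.05, 38 were higher and 64 lower. Called at day 56 were thus 1.14% of these genes, against 0.336% of all genes. Over all genes, 0.0702% were called higher and 0.266% lower, with 2.83% and 5.34% at an unadjusted p under 0.05. The median difference of the 792 at day 56 was 8.3e-05. For 500 of them the 95% interval at day 56 lay below 50% of the day 3 rise. Of 544 genes called lower at day 3 (2.73%), 7 were called higher at day 56 and 1 (Lipg) lower, or 1.47% together. The median difference of the 544 at day 56 was -0.02. For 249 of them the interval excluded a fall of 50% of the day 3 size or more. The 7 were Dbp, Ciart, Per2, Per3, Bhlhe41, Tef and Hdac11. The 9 were Arntl, Spon2, Angptl4, Dtx4, Sdf2l1, Serpinh1, Adam17, Pdia6 and Creb3l1, of which Adam17, a membrane sheddase gene, and Creb3l1, a transcription factor gene of the ER, were named after their values were seen. Spon2 was higher by 2.06 at day 3 than at day 0, and at day 56 it differed by -2.31. Of the genes called at day 7 (8.69% of all genes), 743 were higher, of which 0 were called higher and 7 lower at day 56, and 990 lower, of which 8 were called higher and 2 lower.

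**Figure D5:**
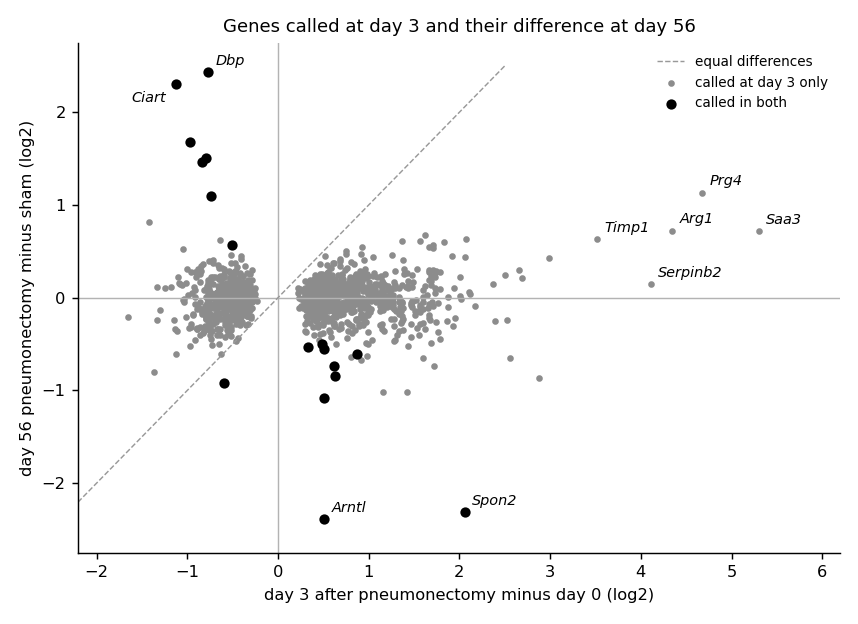
Day 3 minus day 0 difference (horizontal axis, log2) and day 56 pneumonectomy minus sham difference (vertical axis, log2) of the genes called at day 3. Black points were called in both; apart from Lipg they lie in the quadrants of opposite sign, and most grey points lie near 0 on the vertical axis.

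The early response was also followed by function. All 28 mitosis genes were called higher at day 3, and 0 were called at day 56, with 0 higher and 1 lower at an unadjusted p under 0.05. The mitotic checkpoint kinase gene Bub1 was at 5.84, 5.81 and 5.15 after pneumonectomy, against 6.36, 6.73 and 5.66 after sham, and its groups overlapped (difference -0.65 ± 0.29, adjusted p = 0.592). The list median was -0.13, with 23 of the 28 genes below 0 and 5 above it. By region, the mean of the mitosis list differed by -0.25 in the medial lobe, -0.35 in the cardiac lobe and 0.15 in the whole lung. Of 27 DNA replication genes, 17 were called higher at day 3 and 0 at day 56, where none had an unadjusted p under 0.05. Of 25 genes of the fibrillar matrix, 15 were called higher at day 3, and at day 56 the only call was the fall of P4ha1. Col1a1, the main fibrillar collagen gene, was at 8.37, 8.62 and 10.06 after pneumonectomy, against 8.65, 9.0 and 9.29 after sham. The whole lung was higher and both lobes lower after pneumonectomy, and the difference of 0.04 had a 95% interval of -0.80 to 0.88.

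Of 19 acute inflammation genes 11 were called higher at day 3, and of 16 monocyte and interstitial macrophage genes 10 were. None was called at day 56, with 1 higher and 2 lower, and 1 higher and 0 lower, at an unadjusted p under 0.05. Of 12 mesothelial genes 9 were called higher at day 3 and 0 at day 56, with 2 higher and 0 lower at an unadjusted p under 0.05. Over all genes, 2.83% were higher and 5.34% lower at day 56 at that threshold. Prg4, the lubricating proteoglycan of joint and serosal surfaces, was at 6.65, 6.38 and 8.57 after pneumonectomy, against 6.63, 6.11 and 5.47 after sham. It stood high in the whole lung alone, and its difference of 1.13 ± 0.44 did not pass (adjusted p = 0.528). Timp1, a protease inhibitor, was at 7.99, 8.42 and 9.18 after pneumonectomy, against 7.90, 7.99 and 7.78 after sham (difference 0.64 ± 0.23, adjusted p = 0.448).

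No member of the lists of lung cell types was called. In tissue RNA, fewer cells of a type and less RNA per cell cannot be told apart. The list medians were -0.09 for 14 alveolar type I genes, -0.04 for 17 alveolar type II genes, -0.02 for 14 club cell genes, 0.01 for 16 ciliated cell genes and -0.20 for 20 endothelial genes. At an unadjusted p under 0.05 these lists held 0 higher genes and 1, 2, 1, 0 and 6 lower genes in the same order. Over all genes, 2.83% were higher and 5.34% lower at that threshold. The endothelial genes with the smallest p were the junction gene Cldn5 (-0.38 ± 0.12, adjusted p = 0.305) and Eng, a coreceptor of TGF-beta ligands (-0.48 ± 0.18, adjusted p = 0.465). Without the whole-lung pneumonectomy array the endothelial median was -0.23. By region, the mean of the endothelial list differed by -0.0013 in the medial lobe, -0.31 in the cardiac lobe and -0.27 in the whole lung. Of the 20 genes, 16 lay below 0 and 4 above it.

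The list that lay farthest from 0 among immune cells was that of neutrophils, with a median of -0.62 over 16 genes and 0 called. At an unadjusted p under 0.05, 8 were lower and 0 higher, beside 5.34% and 2.83% of all genes. Of the 16, 10 lay below 0 and 6 above it, up to 0.49. Its mean level ran from 6.71 to 7.33 on the pneumonectomy arrays, against 7.21 to 8.15 on the sham arrays. Cxcr2, the main chemokine receptor of neutrophils, was at 6.81, 6.46 and 6.28 after pneumonectomy, against 7.82, 7.85 and 8.92 after sham. The groups did not overlap, but the difference of -1.68 ± 0.41 did not pass (adjusted p = 0.131). Csf3r, the receptor of granulocyte colony-stimulating factor, differed by -1.35 ± 0.35 (adjusted p = 0.185). Any relation of these values to the called genes was not tested.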

How the data were processed

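Biotin-labelled RNA of 21 right lung samples was measured, 1 sample per Affymetrix array. The 35556 probe sets of the deposited table carry log2 values that the authors made with RMA, per the submitters' processing notes, a method of background correction, quantile normalization and probe summary. Its version was not given in the sources used here. Per the labels, cDNA was made with a 3′ kit, but the probes are annotated as a whole-transcript array, so which labelling was used is not settled, and levels of RNAs without a poly(A) tail depend on it. No detection calls were used, so dim genes were kept. By the platform annotation 21789 probe sets had 1 gene symbol, 1621 had several and 12146 had none. Of those with 1 symbol, 21698 matched a RefSeq gene table. Of 19938 genes, 999 had several probe sets and were represented by the brightest.

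The model, with condition and region terms, took all 21 arrays and left 12 residual degrees of freedom (limma 3.58.1, R 4.3.3, empirical Bayes moderation). Region was a block because the labels give 1 array per region and condition: deviations from the group means of same-region arrays in both day 56 groups had correlations of 0.64, 0.47 and 0.71. Errors after ± are standard errors unless SD is stated. The labels give 1 hybridisation note for all arrays, so no batch was tested. In simulated data of 19938 genes for this comparison, 57 of 100 genes shifted by 0.5 and 97 of 100 shifted by 1 were recovered, none with the wrong sign, with 10 false calls.

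Named genes are the 15 largest rises and falls among called genes with 1 sign in 3 regions (all, if fewer), and from each list up to 4 called members in each direction or, if none, the 2 with the smallest p. All members of the clock, clock output and heat shock lists may be named. Genes outside this rule are Col1a1, Saa3, Arg1, Serpinb2 and those said to be named after their values were seen, with the members of the ER and promoter lists named only for a motif or for a shared call at day 3; all were chosen after values were seen. The comparison and the 40 gene lists were chosen with earlier results of these data known, and lists were described without a set test. A further list, of histone genes, matched no gene. Alternatives were no region block, the 6 arrays or the lobes alone, leaving out each array or the 2 arrays with high small RNA levels for their region, median centring, dim genes left out, another prior, array weights, other probe set rules and a 1.5-fold minimum.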

Additional observations from a re-analysis of the deposited data

How the results depend on the processing

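All 67 called genes that could be tested kept their direction under every alternative fitted by gene. With no replicate block (region term), 30 genes were called, with 2 heat shock and 1 ER gene among them. With only the 6 arrays, 32 were called, 23 of them among the 67, again with 2 heat shock and 1 ER gene. The lobes alone gave 54 calls, 3 heat shock genes and 0 ER genes (with 1102 genes at an unadjusted p under 0.05). Without the day 7 cardiac and day 56 pneumonectomy whole-lung arrays, 116 genes were called, with 5 clock output and 7 ER genes. Array weights gave 889 calls, with 8 clock output, 11 heat shock and 15 ER genes. Leaving out 1 array at a time gave 29 to 75 calls and 3 to 4 heat shock genes. The share of calls that were higher, 20.9%, was 40.0% with no block, 43.8% with the 6 arrays, 39.7% without the 2 arrays and from 18.7% to 41.7% with 1 array left out. Median centring gave 63 calls, 27.0% of them higher. Uncalled genes changed sign as follows: Col1a1 was -0.33 in the lobes alone, -0.35 without the 2 arrays and -0.34 with array weights. Arg1 was -0.050 in the lobes alone, Csnk1e was 0.049 without the 2 arrays, and Rora was 0.042 in the lobes alone, 0.075 without the 2 arrays and 0.0067 with median centring. With 1 array left out, Col1a1 ran from -0.41 to 0.38, Dnajb1 from -0.29 to 0.048, Hspa1a from -0.37 to 0.10, Rora from -0.11 to 0.093, Csnk1e from -0.28 to 0.071, Serpinb2 from -0.065 to 0.38 and Per1 from -0.43 to 0.70. The cause was not tested. In all 15 alternatives run for them, Dbp, Ciart, Per2, Per3, Bhlhe41, Nr1d1, Nr1d2, Tef, Tspan4, Hsph1, Hsp90aa1 and Rasl11a passed, as did Arntl and Fam124b in the 14 run for them. Of the genes called at day 3, 17 were called at day 56, and 14 without the whole-lung pneumonectomy array; 17 of the genes called at day 7 were. With 3 arrays a group and no detection calls, small differences of dim genes are the least certain.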

Other observations

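Jchain, the joining chain of secreted IgA and IgM made by plasma cells, was at 8.51, 9.12 and 9.94 in the medial lobe, cardiac lobe and whole lung after pneumonectomy, against 6.27, 7.04 and 7.57 after sham. The groups did not overlap and the difference was alike in the 3 regions (2.24, 2.08 and 2.37), but it did not pass in limma (2.23 ± 0.60, adjusted p = 0.205). The other genes of the plasma and B cell list did not follow it: the median over 15 genes was -0.19, Jchain included, and at an unadjusted p under 0.05 none of the others was higher and 1 was lower.

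Some of the genes with the largest rises at day 3 were high at day 56 on the whole-lung pneumonectomy array alone. Saa3, an acute phase protein gene, was at 6.97, 6.88 and 8.81 after pneumonectomy, against 7.09, 6.54 and 6.86 after sham. Arg1, the arginase of alternatively activated macrophages, was at 5.74, 5.67 and 7.95 after pneumonectomy, against 5.67, 5.84 and 5.68 after sham. Neither passed (adjusted p = 0.768 and 0.841), and both were chosen after their values were seen. Serpinb2, which rose by 4.11 at day 3, did not follow them, at 5.48, 5.30 and 5.50 after pneumonectomy, against 5.39, 5.22 and 5.24 after sham.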
